A study of Mus musculus with 3 samples.

Results

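The clustered replication-dependent histone genes were examined in messenger RNA of mouse regulatory T cells that had experienced inflammation. Members were the genes whose GENCODE M21 name starts with Hist1h, Hist2h, Hist3h or Hist4h and whose annotated type is protein_coding. This gave 67 members among 55536 annotated genes in the tables. They comprise 6 H1, 18 H2A, 18 H2B, 12 H3 and 13 H4 genes, with 54 in the Hist1 cluster on chromosome 13, 10 in Hist2 on chromosome 3, 2 in Hist3 on chromosome 11 and 1 (Hist4h4) on chromosome 6.

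The cells were primary regulatory T cells of an adult male mouse aged 6 months, from a cross of Foxp3CreERT2 and Rosa26YFP. In this strain Cre-ERT2, a Cre recombinase that tamoxifen switches on, is expressed from Foxp3, and a YFP reporter sits at Rosa26. The labels give 1 group with 1 biological replicate and 3 technical replicates, called libraries 1, 2 and 3 here, and do not say how the inflammation was caused, how many animals were used or at which step the replicates were divided. Resting or untreated cells were not analysed here, so the values describe levels and the spread between libraries of the same biological replicate, which may be technical.

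Histone genes of these clusters are transcribed mostly in S phase, when new DNA is packed into nucleosomes of H2A, H2B, H3 and H4 with H1 as the linker. Their messages are unusual in that the 3′ end is normally formed by a cut just after a short stem-loop, which the protein SLBP binds, and carries no poly(A) tail. Polyadenylated forms of some members are known, for example in differentiated cells. The libraries were made from polyadenylated RNA, so the values below count histone messages that passed a poly(A) selection, not all histone messages of the cells.

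The 3′ stem-loop was searched for first, because it is the element by which these messages differ from others. The pattern searched is 16 bases long and reads GG, then 2 positions of any base, then CTTTT, a free position, AG, a free position and GCC at its end. It was found on the transcript strand of 42 of the 67 members. Among all 21951 protein_coding genes with an annotated transcript, 47 (0.214%) held it, and 42 of these 47 were members. Of the 25 members without it, 15 had fewer than 35 annotated bases after the stop codon, so their annotated transcript stops before the place where the stem-loop lies in the others. The other 10 had 35 or more, such as Hist2h2be with 2192. A stem-loop that departs from the pattern would be missed. The sequences of 7 members are given from the GENCODE M21 transcripts, 5′ to 3′ on the transcript strand, with the stem-loop in capitals and the 12 bases before it in lower case. They are the 3 highest H2A members with a stem-loop, the highest H4 and H1 members with one, Hist1h2ao, the near copy of Hist1h2ap, and Hist1h2ac, a low member.
Hist1h2ap: aaaaaaaaaaaaGGCTCTTTTCAGAGCC
Hist1h2ao: aaaaaaaaaaaaGGCTCTTTTCAGAGCC
Hist1h2ae: aaaaaaaacaaaGGCTCTTTTCAGAGCC
Hist2h2aa2: agctcctaaaaaGGCTCTTTTCAGAGCC
Hist1h4d: ccaaaaaccaaaGGCCCTTTTCAGGGCC
Hist1h1e: caacaacccaaaGGCTCTTTTCAGAGCC
Hist1h2ac: ttcaaacccaaaGGCTCTTTTCAGAGCC
In mm10 coordinates these lie at chr13:21833029-21833056 (minus strand) for Hist1h2ap, chr13:21810886-21810913 (plus) for Hist1h2ao, chr13:23570668-23570695 (minus) for Hist1h2ae, chr3:96239784-96239811 (minus) for Hist2h2aa2, chr13:23581938-23581965 (plus) for Hist1h4d, chr13:23621782-23621809 (minus) for Hist1h1e and chr13:23683477-23683504 (minus) for Hist1h2ac. All are in single-exon transcripts, after the stop codon.

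The bases before the stem-loop differed between members. Hist1h2ap and Hist1h2ao have 12 A directly before it, and Hist1h2ae has 11 A among those 12 positions. Hist1h2ap and Hist1h2ae are among the 3 highest members. Hist1h2ac, with a run of 15 A elsewhere in its transcript, averaged 0.637 TPM, and Hist1h2ah, the second highest member, has no more than 2 A in a row in its annotated transcript, which ends 2 bases after the stop codon. A run of 8 or more A was present in 7 members (10.4%), against 35% of all protein_coding genes. A gene was counted if any of its annotated transcripts held such a run. The comparison was not matched for transcript length or for the number of transcripts per gene. Whether runs of A entered the poly(A) selection was not tested.

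Many annotated transcripts continue past the stem-loop. In 21 of the 42 members with a stem-loop, 100 or more annotated bases follow it, and in 15 the sequence after it holds AATAAA or ATTAAA, the common polyadenylation signals. Those 15 members had a median level of 2.12 TPM, from 0 TPM (Hist1h1t and Hist2h3c1) to 166 TPM (Hist1h2ae). The 27 members with a stem-loop and no such signal after it had a median of 2.46 TPM, up to 420 TPM (Hist1h2ap). The 25 without the pattern in an annotated transcript had a median of 3.51 TPM, up to 351 TPM (Hist1h2ah). The ranges of the groups overlapped nearly entirely.

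Histone messages were present at very unequal levels. The deposited TPM value is a level per length of transcript that is scaled to the same total in every library. The threshold for detection was 1 TPM, to be reached in each of the 3 libraries. By this rule 37 of the 67 members were detected, against 10131 of 22028 protein_coding genes (46%). A further 12 members were under 1 TPM in every library. These were Hist1h1d, Hist1h1t, Hist1h2aa, Hist1h2ac, Hist1h2ad, Hist2h2ab, Hist1h2ba, Hist1h2bh, Hist1h3a, Hist1h3f, Hist2h3c1 and Hist1h4j. The median member had 2.46 TPM, while the 3 highest together held 66.7% of the summed TPM of all members and the 8 highest held 84.7%.

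**Figure D1:**
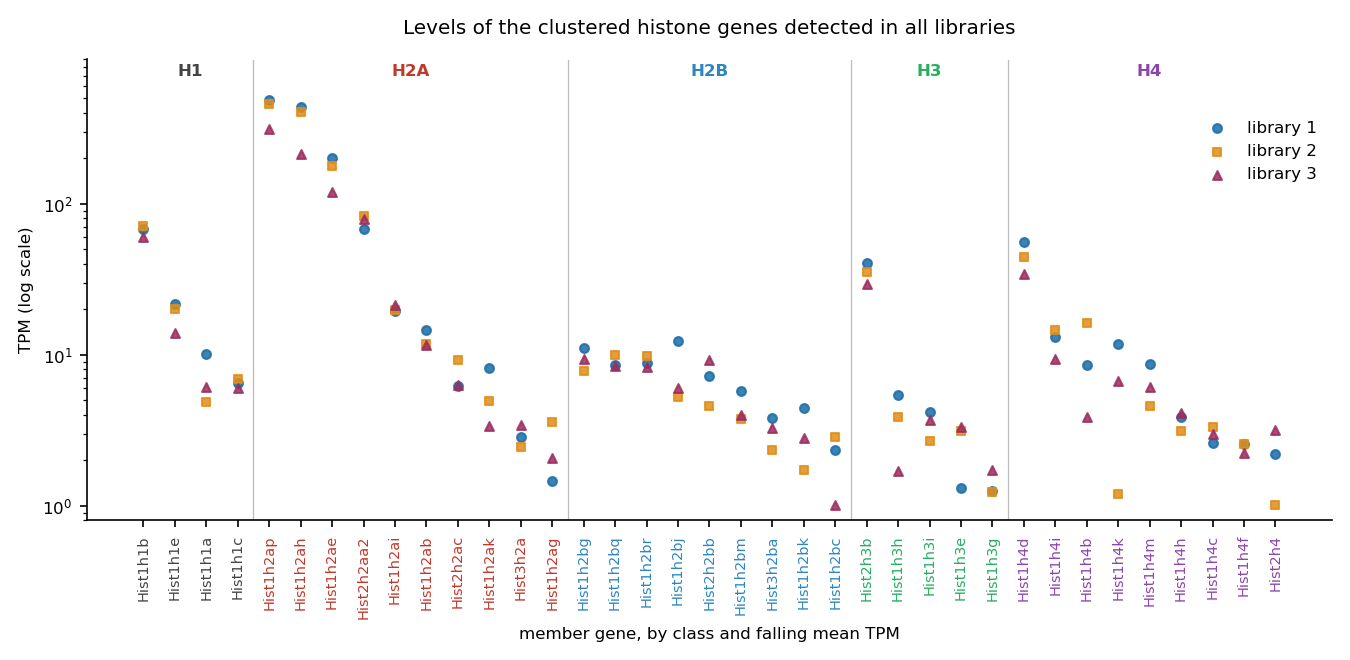
TPM (log scale) of the 37 clustered histone genes at 1 TPM or more in all libraries, by class and falling mean. Each gene has 3 points, 1 per library; Hist1h2ap, Hist1h2ah and Hist1h2ae stand above all others, and library 3 is the lowest point for each of these 3.

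H2A, which pairs with H2B in the nucleosome, had the largest share of the histone messages by the estimated counts, but not by the whole-number counts of the second deposited table. The 18 H2A genes summed to 1265, 1195 and 775.8 TPM in libraries 1, 2 and 3. This was 77.2% ± 2.85 of the summed member TPM (SD over 3 libraries). H1 took 7.26% ± 0.939, H4 6.88% ± 0.817, H2B 4.85% ± 0.943 and H3 3.78% ± 0.318. On the scale of CPM, counts scaled to library size and not to length, H2A took 66.8%, H1 13.9% and H4 10.7%. By the whole-number counts, in a comparison chosen after seeing the data and not per length, H1 took 54.7% ± 1.69, H4 20.2% ± 1.43 and H2A 20.2% ± 0.494, with H2A at 237, 233 and 169 counts and H1 at 618, 667 and 452 counts in libraries 1, 2 and 3. The leading H2A genes that share most of their words with other genes have almost no counts in that table, as given below.

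**Figure D2:**
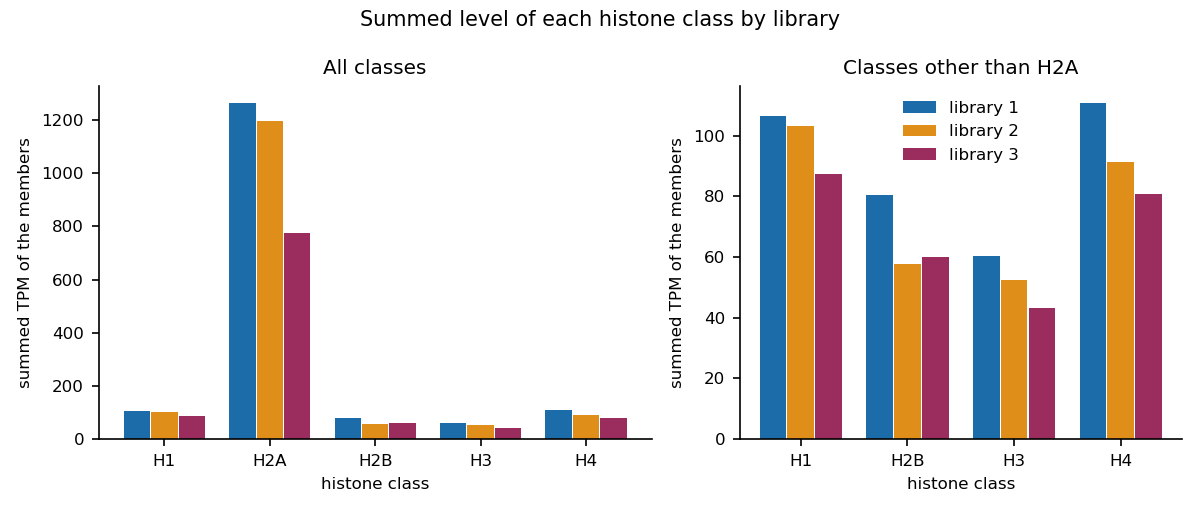
Summed TPM of the members of each histone class in each library, for all classes (left) and for the classes other than H2A (right). H2A reached 1265, 1195 and 775.8 TPM in libraries 1, 2 and 3, while no other class passed 110.8 TPM.

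Among H2A genes, Hist1h2ap (chr13:21833026-21833507, minus strand) was the most abundant member, with 488.4, 458.5 and 311.6 TPM in libraries 1, 2 and 3 (420 ± 94.6, SD). Hist1h2ah (chr13:22035164-22035568, minus) had 436.7, 403.1 and 212.4 TPM (351 ± 121). Hist1h2ae (chr13:23570517-23571220, minus) had 199.9, 177.5 and 119.4 TPM (166 ± 41.6). In all 3 genes library 3 was clearly the lowest, and libraries 1 and 2 were close together. Hist2h2aa2, the highest gene of the Hist2 cluster (chr3:96239749-96240276, minus), had 68.39, 82.7 and 79.58 TPM and did not share that order. Hist1h2ai followed at 20.3 ± 0.966 TPM and Hist1h2ab at 12.7 ± 1.67 TPM. The SD covers the spread between libraries only, and the assignment of reads to Hist1h2ai was uncertain, as given below.

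The remaining H2A genes were low or unsteady between libraries. Hist2h2ac, Hist1h2ak, Hist3h2a and Hist1h2ag were detected at means of 2.37 to 7.26 TPM. Hist2h2aa1 had 11.7, 17.53 and 0 TPM, Hist1h2af had 4.49, 0 and 0 TPM, Hist1h2an had 0, 0 and 3.86 TPM, and Hist1h2ao had 0, 1.9 and 0 TPM. These 4 genes share at least 79.7% of their 50-base words with a single other gene, and a value listed at 0 in 1 library can be a failed estimate of shared reads. Hist1h2aa, an H2A gene known from testis, was at 0 counts in all 3 libraries.

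H2B genes were low, and none reached the level of the leading H2A genes. The 18 genes summed to 80.58, 57.85 and 60.03 TPM. The 4 highest were Hist1h2bg with 11.06, 7.82 and 9.38 TPM, Hist1h2bq with 8.56, 9.93 and 8.46 TPM, Hist1h2br with 8.87, 9.74 and 8.25 TPM, and Hist1h2bj with 12.24, 5.25 and 6 TPM. These 4 differ by less than their spread between libraries. Hist1h2bc and Hist2h2be, whose messages are known in polyadenylated form, had 2.34, 2.84 and 1.02 TPM and 0.99, 1.74 and 1.31 TPM, so neither stood above the other H2B genes. Hist1h2ba, the testis H2B gene, was at 0 counts in all 3 libraries.

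H3 messages came mostly from Hist2h3b (chr3:96268654-96269141, plus strand), with 40.66, 35.41 and 29.32 TPM. The 12 H3 genes summed to 60.37, 52.53 and 43.23 TPM. Hist1h3h had 5.42, 3.86 and 1.7 TPM, Hist1h3i had 4.16, 2.7 and 3.68 TPM and Hist1h3e had 1.31, 3.15 and 3.33 TPM. The values of these 3 genes overlapped, and all lay under every value of Hist2h3b. Hist2h3c1, whose words are all found in other genes as well, was listed at 0.

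H4 messages were led by Hist1h4d (chr13:23581598-23582735, plus strand), with 55.92, 44.06 and 34.47 TPM. The 13 genes summed to 110.8, 91.32 and 80.85 TPM. Hist1h4i had 13.18, 14.68 and 9.43 TPM. Hist1h4b had 8.54, 16.1 and 3.85 TPM, and Hist1h4k had 11.69, 1.19 and 6.74 TPM, so the order of these 3 depended on the library. Hist4h4, the only gene of its cluster, which lies apart from the others on chromosome 6, had 0.67, 0.68 and 1.88 TPM and was highest in library 3. Hist4h4 is another gene whose message is known in polyadenylated form.

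Of the clustered linker histone genes, 4 were detected at 1 TPM or more in every library. Hist1h1b (chr13:21779883-21780625, minus strand) had 67.96, 71.09 and 60.57 TPM, and Hist1h1e (chr13:23620629-23622558, minus) had 21.57, 20.12 and 13.85 TPM. Hist1h1a had 10.06, 4.89 and 6.09 TPM, and Hist1h1c, a linker gene whose message is known in polyadenylated form, had 6.49, 6.94 and 6.04 TPM. Hist1h1b was above Hist1h1e and Hist1h1e above the other 2 in every library, while Hist1h1a and Hist1h1c overlapped. Hist1h1d was at 0.44, 0.27 and 0.65 TPM over an annotated length of 7425 bases, with 29.33, 21.53 and 39.79 estimated counts in libraries 1, 2 and 3. The testis linker gene Hist1h1t was at 0 counts. A gene at 0 may still have had up to 3 counts, and 3 counts correspond to 0.254, 0.212 and 0.281 CPM in libraries 1, 2 and 3.

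By cluster, Hist1 held 89% ± 2.11 of the summed member TPM, Hist2 10.4% ± 1.91, Hist3 0.457% ± 0.166 and Hist4 0.0887% ± 0.0787. Hist3 was represented by Hist3h2ba, with 3.82, 2.34 and 3.26 TPM, and Hist3h2a, with 2.86, 2.45 and 3.45 TPM. The ranges of these 2 genes overlapped.

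Many members cannot be told apart by their reads, which bears on every single-gene value above. Across the 67 members a median of 50.5% of the 50-base words of a gene occurred in no other annotated gene, and in 16 members under 20% did. Only words on the same strand were compared, so words shared with entries on the other strand were left out. Hist2h2aa2 and Hist2h3c1 had no word of their own. Hist1h2ap had 6.93%, Hist1h2ah 9.27%, Hist2h3b 20.3% and Hist1h2ae 56.8%, against 89.8% for Hist1h4d and 100% for Hist1h1b. At least 90% of the words of the shorter gene were shared in 3 pairs, Hist1h2ap with Hist1h2ao, Hist1h2bq with Hist1h2br, and Hist2h2aa2 with Hist2h2aa1.

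The deposited posterior SD of each count measures how uncertain the assignment of reads was. In all 3 libraries it was above 0.5 of the posterior mean in 5 of the 45 members that averaged 10 counts or more (11.1%), against 79 of 13970 such genes (0.565%). At a limit of 0.25 the numbers were 14 members (31.1%) and 382 genes (2.73%). For Hist1h2ah it was 0.135, 0.0973 and 0.203 of the posterior mean in libraries 1, 2 and 3, and thus widest in library 3. For Hist1h2ap it was 0.0312, 0.0284 and 0.0371, and for Hist1h2ae 0.0249, 0.0246 and 0.0347. Hist1h2ai, with 0.55, 0.702 and 0.548, was among the members above 0.5 in all 3 libraries.

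The second deposited gene table, of whole-number counts, gave a different list of leading histone genes. Hist1h2ap had 0, 0 and 0 whole-number counts in libraries 1, 2 and 3, where the first table gives 1914, 2169 and 1120 estimated counts. Hist1h2ah had 2, 0 and 0 whole-number counts against 1407, 1568 and 628 estimated counts, and Hist2h3b and Hist2h2aa2 were at 0 whole-number counts in every library. Hist1h1b, with no shared words, kept 313, 371 and 266 whole-number counts against 427, 539 and 349 estimated counts. Hist1h4d kept 183, 173 and 129 against 551, 524 and 312, and Hist1h2ae kept 177, 171 and 116 against 1186, 1270 and 649. All 16 members with under 20% of words of their own had 5 or fewer whole-number counts in every library. Low whole-number counts were not limited to these members. Hist1h2be, with 83.7% of words of its own, averaged 0.667 whole-number counts against 35.7 estimated counts. Hist1h2ac, with 85.9%, averaged 0.667 against 14.1.

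**Figure D3:**
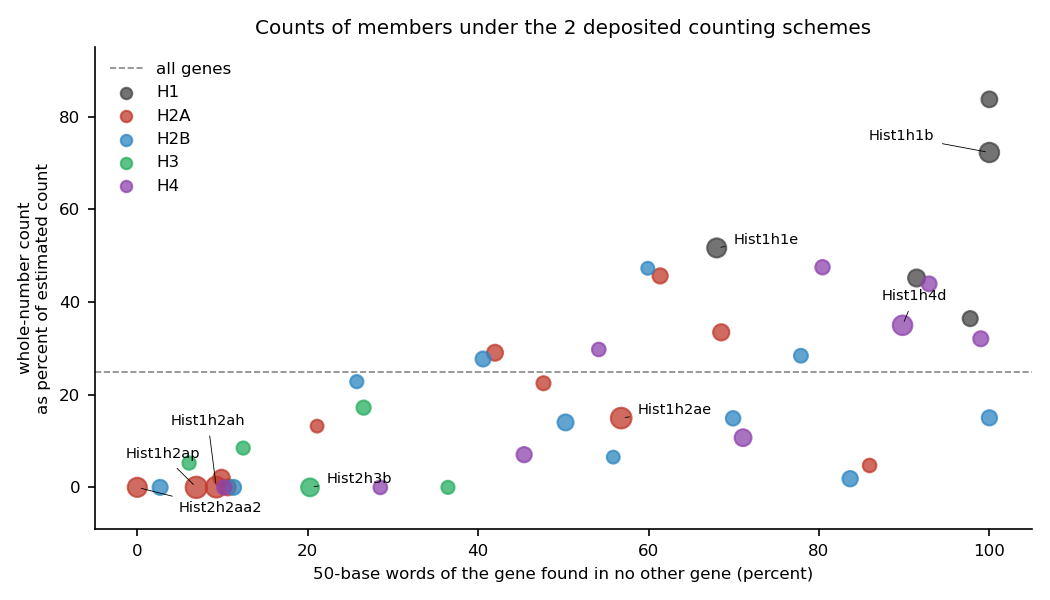
Whole-number count as a percent of the estimated count (means over 3 libraries), plotted against the percent of a gene's 50-base words found in no other gene, for the 42 members in both tables with a mean estimated count of 10 or more. Point area grows with the log of the estimated count, and the dashed line is the percent over the totals of all genes (24.9%). The 10 members under 20% reach 8.48% at most. The 22 members at 50% or more have a median of 32.8%, from 1.87% to 83.7%, so the 2 groups overlap.

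Some entries of the same loci that are not members were also given many counts. Hist1h2aj, an unprocessed pseudogene in the Hist1 cluster, was given 730.67, 854.86 and 456.78 estimated counts (266.37, 258.23 and 181.59 TPM). Gm44346, an entry annotated as a miRNA on the strand opposite to Hist1h2an and inside it, was given 345.53, 339.32 and 263.9 estimated counts (414.85, 337.58 and 345.53 TPM). Adding both to H2A gives 1946, 1790 and 1303 TPM in libraries 1, 2 and 3. How the counting treated strand is not stated, so reads of a gene and of an entry on its other strand cannot be told apart.

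Most H2A genes lie head to head with an H2B gene, and the partners differed widely in TPM, which rests on the estimated counts. In 12 pairs the annotated starts were 175 to 305 bases apart on opposite strands. On the log2(TPM + 0.1) scale the H2A gene was higher in all 3 libraries in 6 pairs, the H2B gene in 3, and the other 3 pairs had no common direction. Hist1h2bk, the partner of Hist1h2ah, had 4.42, 1.72 and 2.81 TPM in libraries 1, 2 and 3. Hist1h2ah exceeded Hist1h2bk by 6.86 ± 0.83 (SD over 3 libraries) and Hist1h2ap exceeded Hist1h2br by 5.51 ± 0.27. Hist1h2ae exceeded Hist1h2bg by 4.10 ± 0.42 and Hist2h2ac exceeded Hist2h2be by 2.36 ± 0.17. By whole-number counts the first 2 of these pairs did not show the H2A gene higher. Hist1h2ah had 2, 0 and 0 against 3, 2 and 3 for Hist1h2bk, and Hist1h2ap and Hist1h2br were both at 0 in every library. Hist1h2ae had 177, 171 and 116 against 5, 6 and 10 for Hist1h2bg, and Hist2h2ac 13, 20 and 12 against 4, 7 and 4 for Hist2h2be. The spread was wider where the H2B gene was listed at 0 in some libraries, as for Hist1h2bl (2.7, 0 and 0 TPM) and Hist1h2bn (0.97, 2.35 and 0 TPM), with Hist1h2ai above Hist1h2bl by 6.07 ± 2.82 and Hist1h2ak above Hist1h2bn by 3.03 ± 2.04. Hist1h2ag was below Hist1h2bj by a mean difference of -1.67 ± 1.23. Hist1h2ao was below Hist1h2bq with a mean difference of -5.06 ± 2.37, but Hist1h2ao shares its sequence with Hist1h2ap.

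**Figure D4:**
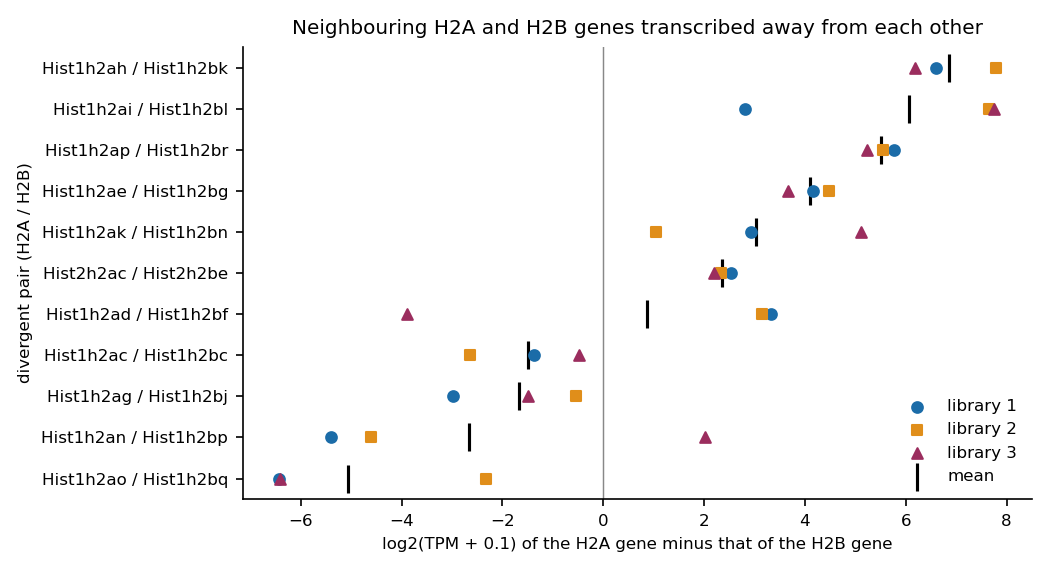
Difference in log2(TPM + 0.1) between the H2A and the H2B gene of each divergent pair with reads, by library, with the mean as a bar. The pairs Hist1h2ah with Hist1h2bk, Hist1h2ap with Hist1h2br, Hist1h2ae with Hist1h2bg and Hist2h2ac with Hist2h2be lie to the right of 0 in every library; Hist1h2aa with Hist1h2ba, at 0 counts in both genes, is not drawn.

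Sequence around the start sites is shown for the pair with the largest difference in TPM and for the leading H4 and a leading H1 gene. Several elements of these promoters have been described by class. The windows run from 250 bases before to 50 after the RefSeq start (GRCm38.p6) and are written on the strand of the named gene. Capitals mark the motifs searched on both strands, namely TATAAA as the TATA box, CCAAT as the site of NF-Y, ATTTGCAT as the octamer known from H2B promoters, GGTCC as the core of the H4 cell cycle element and AAACACA as the H1 box. On the other strand CCAAT reads ATTGG. The first window is at chr13:22035594-22035893 (minus strand), the second at chr13:23581318-23581617 (plus) and the third at chr13:23622509-23622808 (minus).
Hist1h2ah: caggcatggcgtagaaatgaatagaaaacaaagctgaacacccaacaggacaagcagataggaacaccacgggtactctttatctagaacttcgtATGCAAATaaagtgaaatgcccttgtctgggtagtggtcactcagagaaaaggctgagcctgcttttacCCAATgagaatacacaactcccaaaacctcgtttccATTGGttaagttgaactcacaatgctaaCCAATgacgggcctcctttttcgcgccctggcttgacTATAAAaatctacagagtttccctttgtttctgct
Hist1h4d: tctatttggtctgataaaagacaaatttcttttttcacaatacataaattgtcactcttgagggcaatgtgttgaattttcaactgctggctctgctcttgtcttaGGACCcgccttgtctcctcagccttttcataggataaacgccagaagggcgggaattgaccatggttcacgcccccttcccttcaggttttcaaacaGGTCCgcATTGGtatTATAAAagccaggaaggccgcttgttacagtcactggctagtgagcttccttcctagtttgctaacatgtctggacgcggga
Hist1h1e: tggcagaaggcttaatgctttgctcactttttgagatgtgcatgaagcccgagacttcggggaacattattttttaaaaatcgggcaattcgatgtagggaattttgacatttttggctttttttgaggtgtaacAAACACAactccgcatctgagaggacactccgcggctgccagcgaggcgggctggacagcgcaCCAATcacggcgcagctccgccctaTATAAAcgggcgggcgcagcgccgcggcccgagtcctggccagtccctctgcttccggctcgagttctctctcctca

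The Hist1h2ah window is nearly the same DNA as that of Hist1h2bk on the other strand (chr13:22035571-22035870). A single stretch with an octamer, CCAAT boxes and a TATA box thus lies between genes listed at 351 TPM and 2.98 TPM by the estimated counts. By whole-number counts Hist1h2ah had 2, 0 and 0 and Hist1h2bk 3, 2 and 3 in libraries 1, 2 and 3. Those counts do not show the H2A gene higher, so the difference depends on the counting scheme. The 2 schemes also use different annotations, GENCODE M21 and M4. Whether shared reads or another step set them apart was not tested. Of the 67 members, 62 were matched to a RefSeq promoter. CCAAT was present in 85.5% of these, against 37.4% of 32851 promoters of all genes, and was held by every H1, H2A, H2B and H3 window but by 3 of 12 H4 windows. TATAAA was present in 56.5% of member windows and 13.6% of all promoters. The octamer was present in 7 of 18 H2A and 6 of 16 H2B windows and in no H1, H3 or H4 window, against 1.74% of all promoters. GGTCC was present in 11 of 12 H4 windows, against 45.5% of all promoters, and also in 4 of 10 H3, 5 of 16 H2B, 5 of 18 H2A and 1 of 6 H1 windows. AAACACA was present in 5 of 6 H1 windows, against 7.18% of all promoters, and also in 2 of 18 H2A and 2 of 16 H2B windows. Divergent partners share bases, so their windows are not independent.

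Near copies had the same promoter as well. The windows of Hist1h2bq and Hist1h2br were identical over 300 bases, and those of Hist1h2ap and Hist1h2ao over the 200 bases that their windows share after shifting 1 against the other by 100. Hist2h2aa2 and Hist2h2aa1 were 95.8% identical over 260 bases. Summed within such pairs, Hist1h2ap with Hist1h2ao had 488.4, 460.4 and 311.6 TPM, Hist2h2aa2 with Hist2h2aa1 had 80.09, 100.2 and 79.58 TPM, and Hist1h2bq with Hist1h2br had 17.43, 19.67 and 16.71 TPM.

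Histone messages differed between the libraries, mainly through the most abundant H2A genes being lower in library 3. For every gene the 3 estimated counts were set against equal shares of the TMM-adjusted library sizes in a Poisson chi-square test. Adjustment by Benjamini-Hochberg was over the 13970 genes that averaged 10 counts or more. Chi-square values are given per degree of freedom, and would average 1 if libraries differed by counting noise alone. The p-values measure only the spread between these libraries. Of the 45 members tested, 20 (44.4%) passed an adjusted p of 0.05, against 45.7% of all tested genes, so the share of members was close to the background. The median chi-square was 3.18 for the members and 3.28 for all tested genes.

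The 3 largest values belonged to the 3 most abundant members. Hist1h2ah had a chi-square of 138 (adjusted p = 1.6e-58), Hist1h2ap of 90.8 (2.4e-38) and Hist1h2ae of 64.8 (3.0e-27), and all 3 were lowest in library 3. The next was Hist2h2aa1 with 39.4 (1.9e-16), which was listed at 0 in library 3. Hist1h4d had 25.5 (1.2e-10) and Hist1h1e 16.8 (4.6e-07), also lowest in library 3. Hist1h1b, with more counts than Hist1h1e in every library, had a chi-square of 4.54 (adjusted p = 0.0264) and was lowest in library 3 too.

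The direction was shared by many but not all of the called members. Called and lowest in libraries 1, 2 and 3 were 2, 6 and 12 of the 45 tested members (4.44%, 13.3% and 26.7%), against 13.5%, 12.7% and 19.5% of all tested genes. Called and highest in libraries 1, 2 and 3 were 11, 6 and 3 of the 45 (24.4%, 13.3% and 6.67%), against 14%, 15.5% and 16.2% of all tested genes. The 12 members lowest in library 3 were the 7 genes just named with Hist2h3b, Hist1h4i, Hist1h4b, Hist1h2bb (4.44, 2 and 0.86 TPM) and Hist1h2bc. Hist1h1a, Hist1h1d, Hist1h2bj, Hist1h2be (2.45, 0.73 and 2.43 TPM), Hist1h4k and Hist2h4 were lowest in library 2, and Hist2h2aa2 and Hist4h4 in library 1. Those highest in library 3 were Hist4h4 with a chi-square of 10.9 (adjusted p = 0.00010), Hist2h4 with 7.43 (0.0023) and Hist1h1d with 5.15 (0.016).

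On the whole-number counts, where 12 members could be tested, Hist1h1d had 14, 14 and 5 counts in libraries 1, 2 and 3 and was lowest in library 3, the opposite direction (adjusted p = 0.323). Hist1h1e passed there as well (adjusted p = 0.00059), lowest in library 3. Hist1h2ae (0.0521), Hist1h4d (0.117) and Hist1h1b (0.479) were also lowest in library 3 but did not pass, and neither did Hist4h4 (0.0557), highest in library 3.

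Counting all tested members, called or not, 25 were highest in library 1, 12 in library 2 and 8 in library 3, where all tested genes gave 31.2%, 32.3% and 36.5%. Lowest were 9 in library 1, 16 in library 2 and 20 in library 3, where all tested genes gave 31.7%, 31% and 37.3%. The summed level of all members was 0.645 times as high in library 3 as in library 1 in TPM (1047 against 1623), and 1500 TPM in library 2. Without Hist1h2ap, Hist1h2ah and Hist1h2ae it was 403.7 TPM in library 3 and 497.9 TPM in library 1, a ratio of 0.811. Over the 35 members with 50% or more of words of their own it was 302.9 TPM in library 3 and 438.3 TPM in library 1, a ratio of 0.691. Hist1h2ae is among these 35 and gave 119.4 TPM of the sum in library 3 and 199.9 TPM in library 1. In bulk RNA, fewer cells in S phase and less histone message per cell cannot be told apart.

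For the 3 leading H2A genes the difference rested on library 3. Without it, Hist1h2ap, Hist1h2ah and Hist1h2ae had adjusted p-values of 0.466, 0.339 and 0.0900 for library 1 against library 2. Of the 45 tested members 8 passed without library 3. The share of all tested genes that passed was counted only with all 3 libraries and the main setting. The numbers of members under the alternatives therefore have no background beside them and are not a result about histone genes. Adjusted p-values of Hist1h1e, Hist1h1b, Hist2h3b and Hist1h4i were then 0.725, 0.455, 0.511 and 0.549. Those of Hist1h2bb, Hist1h2bc, Hist1h1d, Hist2h4 and Hist4h4 were 0.157, 0.590, 0.278, 0.0657 and 0.936. Hist1h4d passed with and without library 3. Leaving out library 1 or library 2 gave 15 and 14 members that passed, and Hist1h2ap, Hist1h2ah, Hist1h2ae, Hist1h4d and Hist1h1e were among them. Without library 1, Hist1h2bj had an adjusted p of 0.843 and Hist1h1a of 0.613, and Hist1h2be had 0.912 without library 2. With the deposited posterior SD added to the Poisson variance 11 members passed, and Hist2h2aa1 (adjusted p = 0.345), Hist1h4k (0.341) and Hist2h2aa2 (0.712) were among those that did not. With near copies summed, in a comparison chosen after seeing the data, Hist1h2ap with Hist1h2ao kept a chi-square of 91.6 (adjusted p = 1.1e-38), lowest in library 3, and Hist2h2aa2 with Hist2h2aa1 had 11.6 (5.3e-05), highest in library 2, with 79.58 TPM in library 3 and 80.09 TPM in library 1.

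**Figure D5:**
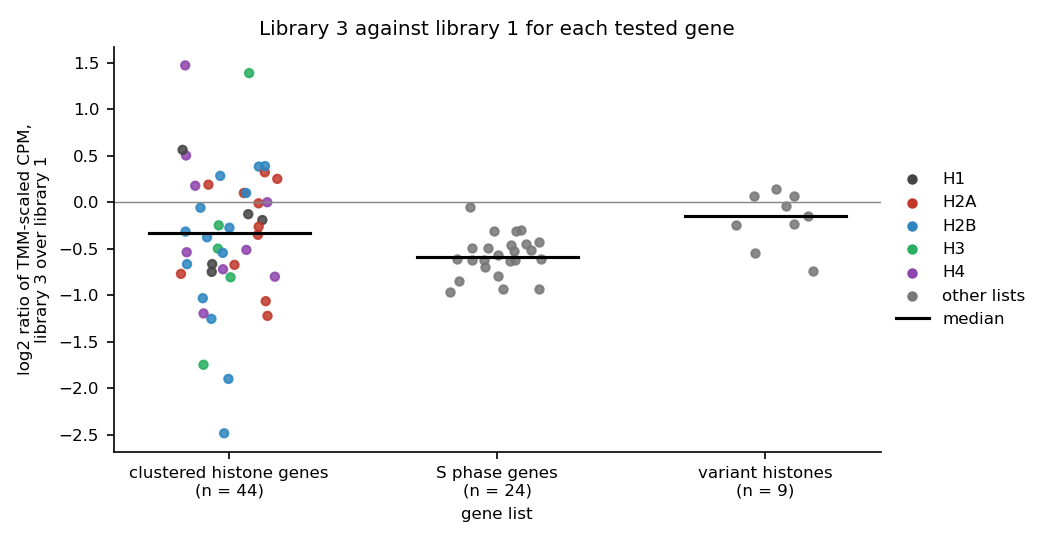
Log2 ratio of TMM-scaled CPM, library 3 over library 1, for each tested member with counts in both (coloured by class), each S phase gene and each tested variant histone, with the median as a bar. Of 44 members, 31 lie below 0 (median -0.33, from -2.49 to 1.47), as do all 24 S phase genes (median -0.59) and 6 of 9 variant histones (median -0.15).

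S phase genes moved in the same direction between these libraries. Of the 44 tested members with counts in libraries 3 and 1, 31 were lower in library 3, against 49.6% of all tested genes. Of all tested genes 45.7% passed the test, and 19.5% passed with library 3 lowest. All 24 genes of an S phase list passed the test and were lowest in library 3. They include Rrm2, the small subunit of ribonucleotide reductase, with 481.6, 391.6 and 318.6 TPM in libraries 1, 2 and 3, Tyms, the thymidylate synthase, with 329.8, 278.3 and 212.6 TPM, Pcna, the sliding clamp, with 270.6, 245 and 208.9 TPM, and Rrm1, the large reductase subunit, with 187.6, 171.7 and 134.3 TPM. Their sum was 2735, 2488 and 1899 TPM, against 1623, 1500 and 1047 TPM for the histone members. The 2 sums thus had the same order over the libraries, with a ratio of library 3 over library 1 of 0.694 for S phase and 0.645 for the members.

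By the estimated counts, the variant histones, a list of 11 genes that are not members, were in sum far more abundant than the clustered genes. Their sum was nearly level between libraries. Only messages that passed the poly(A) selection are counted, so this contrast is not one between all histone messages of the cells. Whether every listed message is polyadenylated and made independently of replication was not tested. The 11 genes summed to 5261, 5281 and 5050 TPM. H2afz, which encodes H2A.Z, had 2485, 2335 and 2180 TPM, and H3f3b and H3f3a, which encode the replacement H3, had 1514, 1660 and 1706 TPM and 591.1, 606.3 and 593.5 TPM. H2afv had 254.3, 247.6 and 217.4 TPM. By whole-number counts H2afz had 27, 38 and 42 in libraries 1, 2 and 3, against 20080, 22630 and 15960 estimated counts. It was thus highest in library 3 there, the reverse of its TPM. H3f3a had 40, 43 and 49 whole-number counts, H3f3b 470, 474 and 472 and H2afv 507, 556 and 443. The whole-number sum of the list was not taken. H2afx, which encodes the H2A form phosphorylated at DNA breaks, had 51.46, 49.04 and 35.91 TPM and was lowest in library 3 like the leading clustered H2A genes. Cenpa, the centromeric H3, was also lowest there, with 152.2, 160.2 and 93.56 TPM and a chi-square of 108. H2afy2 and H1fx were under 1 TPM in every library. Of the 9 tested variant genes 7 passed the test (77.8%, against 45.7% of all tested genes). Of these 7, 5 were lowest in library 3 on the TMM scale, where 19.5% of all tested genes passed with library 3 lowest.

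Most genes known to act in making histone messages were detected, with 7 of 10 in 3′ end processing and 11 of 11 in transcription. Slbp, which binds the stem-loop, had 247.8, 261.6 and 219.5 TPM. Of all tested genes 45.7% passed, and 19.5% passed with library 3 lowest. Of the 9 tested genes of 3′ end processing 5 passed (55.6%), a share near that of all genes, and these 5 were lowest in library 3 on the TMM scale. The next highest genes of that list were Cpsf3, the cutting enzyme, with 85.61, 83.37 and 91.32 TPM, Lsm10, a subunit of the U7 particle, with 51.91, 44.25 and 49.62 TPM, and Casp8ap2 with 39.03, 37.08 and 40.55 TPM. Casp8ap2 passed the test but was highest in library 3 in TPM, so its direction depends on the scale. Mblac1 was under 1 TPM in every library. Npat, the coactivator of histone gene transcription, had 11.5, 14.31 and 12.83 TPM. In the transcription list 7 of 11 genes passed (63.6%, against the same 45.7%), with 4 lowest in library 3 on the TMM scale. Its highest genes were Nfyb and Nfyc, subunits of the factor that binds CCAAT, with 96.31, 93.17 and 71.82 TPM and 59.28, 55.78 and 50.15 TPM, Ccne2, a cyclin of the start of S phase, with 44.14, 38.84 and 25.48 TPM, and E2f2 with 38.8, 35.33 and 25.84 TPM.

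Histone chaperones, which carry histones to and from DNA, were detected in 18 of 18 cases. Of these 16 passed the test (88.9%, against 45.7% of all tested genes). On the TMM scale 14 passed with library 3 lowest, as did 19.5% of all tested genes. Npm1, an abundant nucleolar chaperone, had 1122, 1017 and 1021 TPM. Rbbp4, a subunit of chromatin assembly factor 1, had 407.2, 391.1 and 378.8 TPM, Anp32e, which removes H2A.Z, had 270.1, 224.3 and 245.7 TPM and Atrx, which acts in replication-independent H3 deposition, had 231.4, 214.2 and 217 TPM.

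The libraries had 11829501, 14136139 and 10667765 estimated counts on genes, and all held the markers of the labelled cell type. T cell markers summed to 5815, 5769 and 6082 TPM with 4 of 4 detected. Regulatory T cell markers summed to 701, 544.9 and 721.6 TPM, also with 4 of 4 detected, and Foxp3, which encodes their defining transcription factor, had 17.96, 14.25 and 16.01 TPM. Summed markers of erythroid, B, plasma, myeloid and cytotoxic cells were lowest in library 1. The 4 erythroid markers summed to 3.81, 44.33 and 259.5 TPM, with 2 of 4 detected and Hba-a2 at 0 in library 1. The 4 B cell markers summed to 20.46, 44.47 and 56.55 TPM, the 3 plasma cell markers to 1.57, 22.41 and 27.37 TPM, the 4 myeloid markers to 3.11, 36.02 and 14.24 TPM and the 3 CD8 T cell and NK cell markers to 6.35, 12.68 and 15.38 TPM. Thymocyte, platelet and testis germ cell markers were all under 1 TPM, with Rag1 and Tnp1 at 0 in every library. Library 3, in which the leading histone genes were lowest, thus had the highest erythroid, B cell and plasma cell sums, and the part of these cells in the histone levels was not tested.

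Most members have a single annotated transcript. Of those with several, Hist1h2be had 76.1%, 82.3% and 82.9% of its TPM on a processed transcript that overlaps Hist1h1e by 496 bases on the same strand. The posterior SD was 0.0353, 0.0699 and 0.0391 of the posterior mean count for Hist1h2be and 0.0115, 0.0124 and 0.0199 for Hist1h1e in libraries 1, 2 and 3. Hist1h2bq and Hist1h2br had at least 96.3% of their TPM on their short single-exon coding transcript of 381 bases, and both transcripts were given the same counts, 25.68, 35.32 and 22.75 in libraries 1, 2 and 3. Hist1h2bp was given entirely to its single-exon transcript in libraries 1 and 2 but 90.3% to a spliced transcript in library 3, at a level of 0.79 TPM. At 4.07 estimated counts in library 3, that switch rests on too few reads to be read as a change.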

How the data were processed

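Polyadenylated RNA was measured in 3 libraries, technical replicates of 1 biological replicate and 1 group, numbered as in the labels. The authors deposited estimated counts, a posterior SD as a signal in reads, TPM and the percent of gene TPM per transcript, on mm10 and GENCODE M21 per the file headers and the deposited file descriptions. A further table of whole-number counts on GENCODE M4 was deposited as well. Versions, the aligner, strand handling and read length are not named in the sources. Estimated counts were rounded to whole numbers for the test.

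A quasi-likelihood test needs groups to compare, so none was run. Library sizes were TMM-adjusted with edgeR 4.0.16 (factors 0.995, 0.976 and 1.03 in libraries 1, 2 and 3), and DESeq2 1.42.0 size factors were an alternative. The chi-square test was tested on simulated data. Reads can be PCR copies of 1 molecule, so floors and tests cover counting error only. A word of 50 bases was used because effective lengths were 49 bases shorter than lengths. Words were compared among all GENCODE M21 transcripts on their own strand.

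Members and lists were chosen with earlier results of these data known. Genes were named by rule, as the 4 highest of each class, the highest of each cluster, all called members, members known from testis or as polyadenylated, members under 1 TPM in all libraries, and the 4 highest and those under 1 TPM of each list. Others named, such as the non-member entries and divergent partners, were chosen after their values were seen. The 3′ processing list holds 10 of its 11 genes, since 1 symbol was not found in the annotation.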

Additional observations from a re-analysis of the deposited data

Results flagged for a closer look

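Of the entries that are not members but overlap a member or carry a Hist name, 6 had more than 3 estimated counts in every library, the limit that a count of 0 allows. They entered none of the counts of members. The lowest count over the 3 libraries was 456.78 for the pseudogene Hist1h2aj and 263.9 for Gm44346, the entry on the other strand inside Hist1h2an. It was 15.3 for Gm20628, on the other strand of Hist2h3b and Hist2h2bb, and 8.35 for Gm20632, on the other strand of Hist2h2aa2. It was 10.12 for Gm20634, which runs over Hist2h2aa1 and Hist2h3c1 on the same strand and holds all 50-base words of Hist2h2aa2 and Hist2h3c1, and 3.58 for Gm44492, on the other strand of Hist2h2ac. Whether these reads come from the entries or from histone genes was not tested.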

How the results depend on the processing

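The count of members that differed between libraries was 20 with TMM and with DESeq2 size factors, 17 with total counts and 23 without a filter on low counts. It was 11 with the posterior SD added to the variance. On whole-number counts it was 2 of the 12 members that averaged 10 such counts or more. There 7 of 12 were lowest in library 3 and 6 of 12 highest in library 1. Leaving out 1 library gave 8 to 15 calls. The share of all tested genes called was counted for the main setting only, so these counts of members have no background beside them. Shares of the classes moved on the CPM scale, where H1 took 13.9%, H2A 66.8% and H4 10.7%, as did the small clusters, with Hist3 at 1.14% and Hist4 at 0.473%, by construction since CPM is not per length. By whole-number counts, not per length and chosen after seeing the data, H2A took 20.18%, H2B 3.621%, H3 1.236%, H4 20.22% and H1 54.74%, and the clusters Hist1, Hist2, Hist3 and Hist4 took 93.59%, 2.874%, 2.31% and 1.23%. With Hist1h2aj and Gm44346 counted, a choice made after seeing the data, H2A took 84.2%. At a limit of 0.25 in place of 0.5 of the posterior mean, 34 in place of 18 of the 67 members were uncertain in all libraries, since the limit is lower. The number of members detected ranged from 37 to 55 over its alternatives. None of the 20 calls held under every alternative that tested it. No paired analysis was possible because there is 1 group. Depth limits members of few counts, and p-values describe these libraries only.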
